A study of Bos taurus with 6 samples.

Results

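De novo lipogenesis, the making of fatty acids from acetyl-CoA, is represented here by 10 genes for its enzymes and regulators: FASN, ACACA, ACACB, ACLY, ME1, ACSS2, SREBF1, MLXIPL, THRSP and MID1IP1. A probe was counted for a gene when its gene name, or the symbol in brackets in its description, was that of the gene. They are 10 of the 15846 genes named on a bovine Agilent array, with 36 of its 43653 probes, and each probe was read separately. The array was hybridised with RNA from whole blood of the jugular vein of 3 fat-1 transgenic and 3 wild type cows, 1 array per animal. All 6 animals were female, and all were 3 years old except fat-1 replicate 1, at 3.5 years. The fat-1 gene of Caenorhabditis elegans encodes a desaturase that makes omega-3 from omega-6 fatty acids, and the study asked how gene expression and lipid metabolism differ with it. The promoter of the transgene and the number of founder lines are not given in the sources used here, and the transgene's own transcript was not analysed.

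In this pathway citrate leaves the mitochondrion and is split by ACLY, ATP citrate lyase, into cytosolic acetyl-CoA, which ACSS2 can also make from acetate, the main carbon source for fat synthesis in ruminants. Acetyl-CoA carboxylase, encoded by ACACA and ACACB, turns it into malonyl-CoA, and FASN, fatty acid synthase, extends this to palmitate with NADPH that malic enzyme ME1 helps to supply. SREBF1 and MLXIPL encode the transcription factors SREBP-1 and ChREBP, which switch these enzymes on in response to insulin and glucose, above all in liver and adipose tissue. THRSP and MID1IP1 encode small related proteins, of which that of MID1IP1 promotes the activity of acetyl-CoA carboxylase.

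Signal in blood divided the probes of the pathway. Of the 36 probes, 17 were well above background, by the scanner software's own flag, on at least 3 of the 6 arrays and entered the comparison, as did 26810 of all probes. They belonged to 6 genes: all 4 ACLY probes, all 3 of MID1IP1, both of ME1, of ACSS2 and of SREBF1, and 4 of the 5 FASN probes. None of the probes for ACACA, ACACB, MLXIPL or THRSP met this minimum. Of the 19 probes left out, 16 were not well above background on any array and 3 on only 1 or 2 arrays. Signal also varied along a transcript. FASN intensities were 18.8 to 34 at base 4335 and 15500 to 23900 at base 8133. Those of ACLY were 69.4 to 100 at base 1428 and 6790 to 13600 at base 4103. Whether a gene was dim for its level or for where its probes lie was not tested. The probes are spread over 7 chromosomes, and FASN, ACACA, ACLY and SREBF1 all lie on chromosome 19, which holds 14 of the 36 probes (38.9%) against 2413 of the 41544 probes with a position (5.81%).

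**Figure D1:**
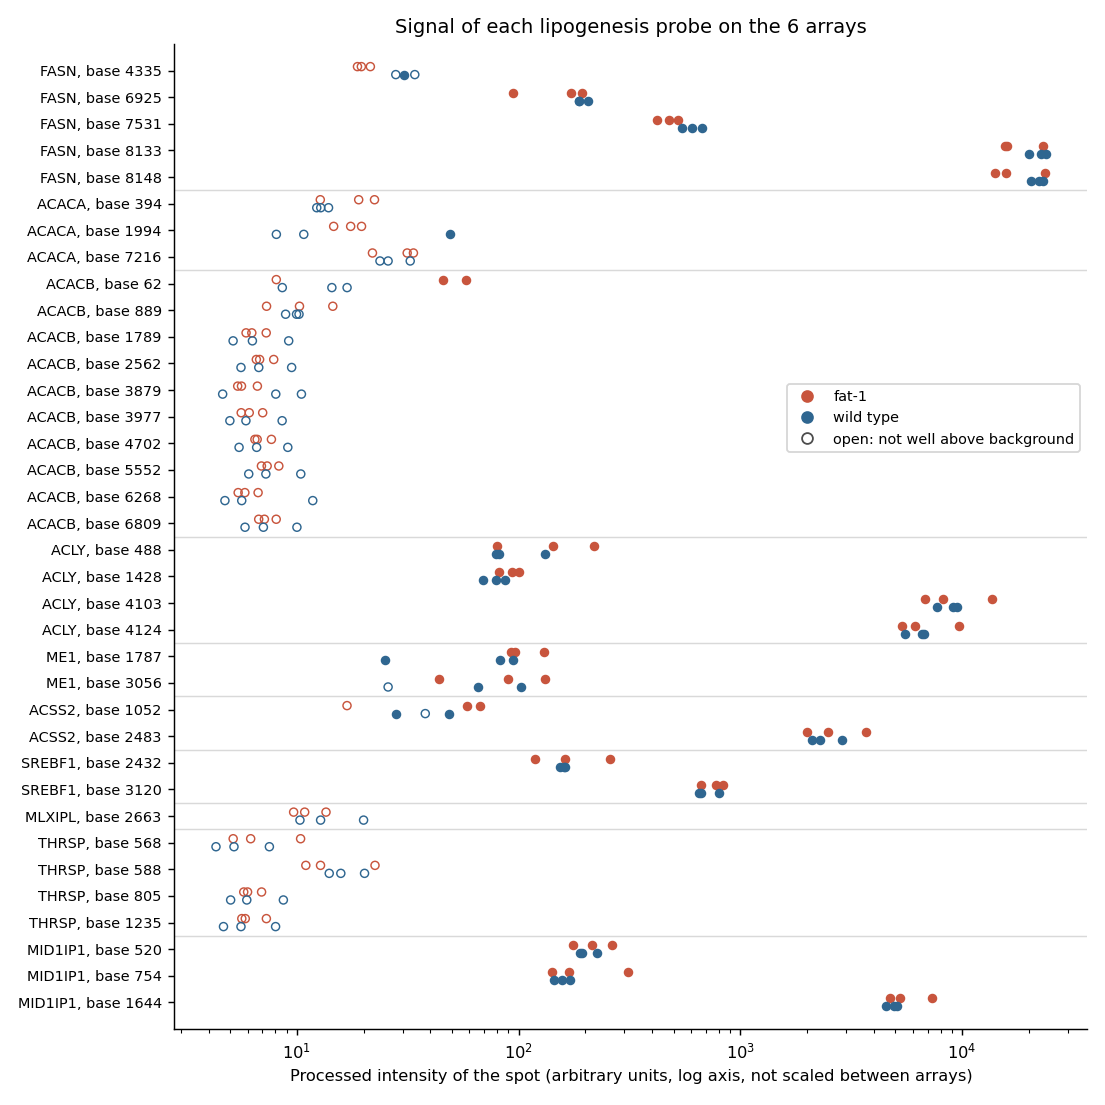
Processed intensity (arbitrary units, log axis) of each of the 36 probes on the 6 arrays, fat-1 in red and wild type in blue, with open circles where a spot was not well above background. The probes of ACACA, ACACB, MLXIPL and THRSP lie almost wholly in open circles at the dim end, and those of the other genes, save FASN at base 4335, mostly in filled ones.

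FASN had lower mean levels in fat-1 than in wild type blood at each of its 5 probes, and the 4 that were measured differed by nearly the same amount, 27.8% to 32.6% less signal, but none of them passed the test. The probes span chr19:52184127-52190007 on the plus strand of the build Btau_3.1, and are named here by the base of the target transcript at which they start, as the files list it. Their sequences are shown because some of them share bases. All of them read the same animals on the same arrays. The stretches printed are each probe whole at bases 4335 and 6925, and 30 bases of the others, with the hexamer ATTAAA, a known variant of the polyadenylation signal, in capitals.
FASN, base 4335: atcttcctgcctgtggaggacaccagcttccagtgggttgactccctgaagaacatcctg
FASN, base 6925: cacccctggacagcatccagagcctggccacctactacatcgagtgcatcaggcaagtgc
FASN, base 7531, first 30 bases: gcgaccaccgcacgctgctggagggcagcg
FASN, base 8133, last 30 bases: ggtaaagatgttgtctcccatgATTAAAtc
FASN, base 8148, bases 16 to 45: ggtaaagatgttgtctcccatgATTAAAtc
The last pair of lines is the same stretch of the transcript. These probes overlap by 45 of their 60 bases, so they are in effect 1 measurement, while the other probes do not overlap them. The hexamer was found on the sense strand of these 2 of the 36 probes and of 3.6% of all 43653. Exon and untranslated region could not be assigned, since no annotation of the build was used here.

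The brightest FASN probe, at base 8133, had processed intensities of 15550, 15870 and 23260 in fat-1 and 20050, 22600 and 23880 in wild type blood. Taken against each array's 75th percentile of intensity, its log2 levels were 4.44, 4.41 and 4.45 in fat-1 replicates 1, 2 and 3, and 4.76, 5.21 and 4.75 in wild type replicates 1, 2 and 3. The fat-1 animals lay within a narrow band below all 3 wild type animals, and wild type replicate 2 stood highest. The means were 4.43 ± 0.02 and 4.91 ± 0.26 (SD, n = 3 each), a log2 difference of -0.47 ± 0.22 (SE of the limma fit, adjusted p = 0.397). The overlapping probe at base 8148 had levels of 4.30, 4.40 and 4.47 in fat-1 and 4.79, 5.18 and 4.71 in wild type blood. Here too the groups did not overlap, and the difference was -0.50 ± 0.22, with an unadjusted p of 0.0471 in limma, and an adjusted p of 0.387. It was the only lipogenesis probe lower in fat-1 blood with an unadjusted p under 0.05, which 6.68% of all probes had in that direction. On the unscaled intensities fat-1 replicate 3 overlapped the wild type animals at both probes.

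Upstream in the transcript, the probe at base 7531 gave -0.58, -0.82 and -1.03 in fat-1 and -0.45, 0.14 and -0.56 in wild type blood. The groups were separate, though by only 0.02 between fat-1 replicate 1 and wild type replicate 3. Its difference was -0.52 ± 0.26 (limma adjusted p = 0.413). At base 6925 the levels were -1.89, -2.99 and -2.63 in fat-1 and -1.98, -1.71 and -2.11 in wild type blood. Here fat-1 replicate 1 sat among the wild type animals and the other fat-1 animals below them, for a difference of -0.57 ± 0.30 (limma adjusted p = 0.429). The dimmest probe, at base 4335, was well above background on 1 array only, that of a wild type animal, so no firm fold can be given. With each fat-1 array held at its lowest signal well above background and wild type arrays at their measured values, wild type blood was 1.25-fold higher. Only 1 of those wild type values was itself well above background, so this is not a firm minimum. The measured levels at base 4335 were -5.06, -5.25 and -5.83 in fat-1 and -4.73, -4.33 and -4.70 in wild type blood, again without overlap.

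**Figure D2:**
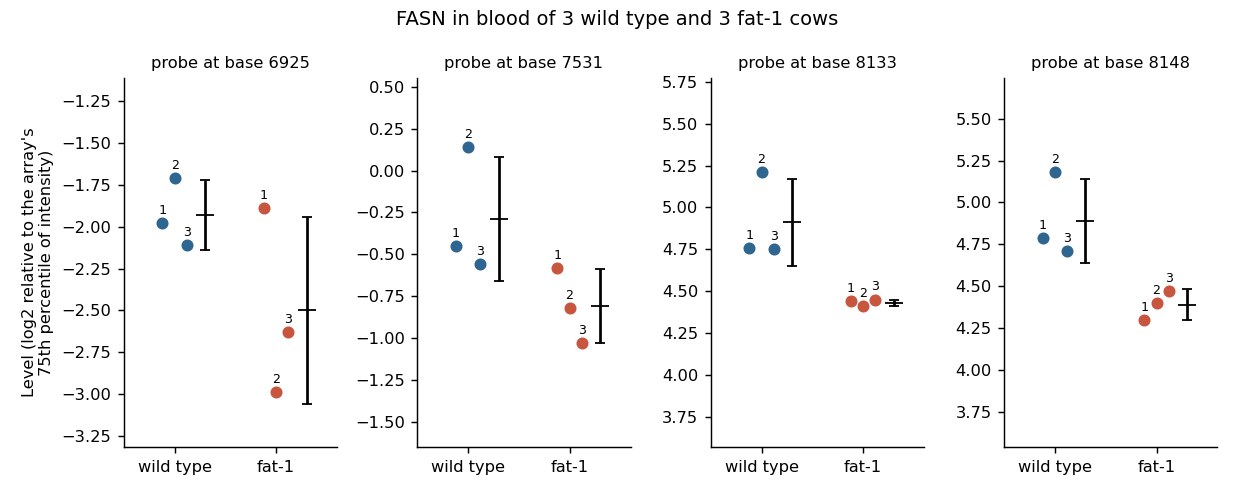
FASN levels (log2, minus the 75th percentile of each array) at the 4 measured probes, 1 point per cow labelled by replicate number, with mean and SD as bars; each panel spans the same range of log2 units. The fat-1 animals lie below the wild type animals at bases 7531, 8133 and 8148, and fat-1 replicate 1 overlaps them at base 6925.

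Averaged over the 4 measured probes, which counts the stretch shared by bases 8133 and 8148 in both, FASN levels were 1.57, 1.25 and 1.31 in fat-1 and 1.78, 2.20 and 1.70 in wild type blood. Every fat-1 animal lay below every wild type animal. The difference of this average was -0.52 ± 0.22, with an unadjusted p of 0.0435 in limma and an adjusted p of 0.349 over 10970 genes treated alike. The 95% confidence intervals of the single probes ran from -1.26 to 0.12 at base 6925, from -1.10 to 0.06 at base 7531, from -0.96 to 0.02 at base 8133 and from -1.0 to -0.01 at base 8148. The difference was below 0 at all 5 probes on each scale tried. The groups were apart at 4 after scaling by the 75th percentile, by the median or by quantiles and in the authors' value table. They were apart at 3 after normexp background correction and at 2 without scaling. The 4 were the probe at base 7531, the overlapping pair at bases 8133 and 8148, and the dim probe at base 4335. That dim probe was well above background on 1 array only and was left out of the comparison. The share of all probes separated in this way is given below for scaling by the 75th percentile only. The difference was smaller in size under quantile normalization at base 8133, -0.30, and without wild type replicate 2 at base 7531, -0.31. At base 6925 it came to -0.33 when fat-1 replicate 2 was left out and to -0.88 when replicate 1 of that group was.

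Such separation was common on these arrays. Of all 26810 probes, 12.7% had every fat-1 animal below every wild type animal and 6.91% the reverse, against 3 (17.6%) and 1 of the 17 lipogenesis probes. Of all probes 0.172% passed an adjusted p of 0.05 in limma, 46 in number, and 12.8% had an unadjusted p under 0.05. Of the 17 lipogenesis probes 0 passed, 1 had an unadjusted p under 0.05, and 0 were also 2-fold apart, against 4.06% of all. Their median difference was -0.05, beside -0.06 over all probes, and 11 of 17 (64.7%) lay below 0 against 55.4% of all.

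**Figure D3:**
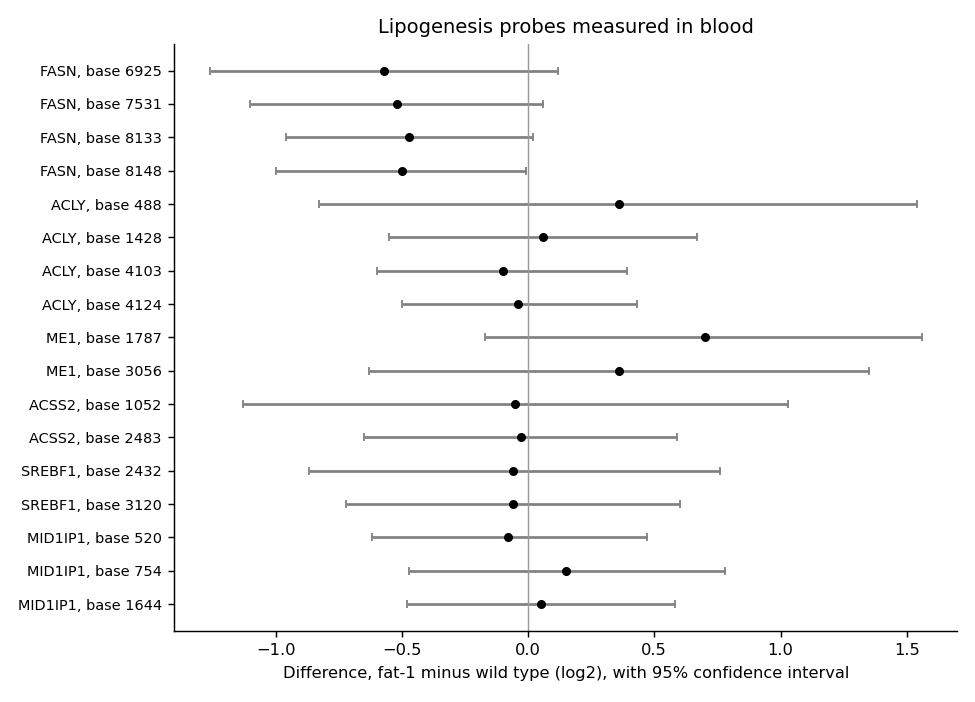
Difference between fat-1 and wild type blood (log2) with its 95% confidence interval for each of the 17 lipogenesis probes measured, named by gene and first transcript base. The 4 FASN intervals lie mostly below 0, only that at base 8148 excludes it, and the widest intervals are those of dim probes of ACLY, ACSS2 and ME1.

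The enzymes that supply acetyl-CoA showed no difference that passed the test. ACLY has 4 probes between chr19:43407278-43443059, on the minus strand. The pair at its 3′ end, at bases 4103 and 4124, overlaps by 39 bases and was bright, with levels at base 4103 of 3.25, 3.45 and 3.67 in fat-1 and 3.67, 3.66 and 3.36 in wild type blood. Both groups covered the same range, and the difference was -0.10 ± 0.22 (limma adjusted p = 0.824), with a 95% interval from -0.60 to 0.39. At base 4124 it was -0.04 ± 0.20 (limma adjusted p = 0.935). The dimmer probes at bases 488 and 1428 gave 0.36 ± 0.52 and 0.06 ± 0.27, the former with animals from -3.73 to -1.77, the widest spread within a group among the ACLY probes. The average over the 4 probes was 0.07, opposite in sign to the brightest probe.

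ACSS2, the acetate-activating enzyme, has probes at bases 1052 and 2483, within chr13:64808857-64815433 on the plus strand. The brighter, at base 2483, gave 1.49, 1.74 and 1.79 in fat-1 and 1.51, 2.23 and 1.36 in wild type blood. The fat-1 animals lay within the range of the wild type ones, and the difference was -0.03 ± 0.27 (limma adjusted p = 0.960; 95% interval -0.65 to 0.59). The probe at base 1052 was well above background in 2 animals of each group and gave -0.05 ± 0.47 (limma adjusted p = 0.965).

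ME1, the cytosolic malic enzyme, was the only one of the 10 lipogenesis genes whose measured probes all had a higher mean in fat-1 blood, though 1 of them changed sign under some alternatives. Its 30-base stretches, within chr9:23814561-23815889 on the minus strand, are shown because its 2 probes do not overlap. Both still read the same animals on the same arrays.
ME1, base 1787, first 30 bases: cagaccaaacttgactagtagcataatagc
ME1, base 3056, first 30 bases: ttgtagtagaaggggtaggggtatttctga
At base 1787 the levels were -2.89, -3.0 and -3.03 in fat-1 and -3.17, -4.61 and -3.23 in wild type blood. The groups did not overlap, but wild type replicates 1 and 3 were close to the fat-1 animals and replicate 2 far below them. The means were -2.97 ± 0.07 and -3.67 ± 0.82 (SD, n = 3 each), a difference of 0.70 ± 0.38 (limma adjusted p = 0.433; 95% interval -0.17 to 1.56). Without wild type replicate 2 it was 0.22, and with normexp background correction 0.07. At base 3056 the levels were -3.0, -4.09 and -3.01 in fat-1 and -3.50, -4.57 and -3.11 in wild type blood, with overlap. The difference of 0.36 ± 0.43 (limma adjusted p = 0.681) turned to -0.06 without wild type replicate 2 and to -0.17 with normexp.

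Acetyl-CoA carboxylase, the step that commits carbon to fatty acids, was at or near background in blood at the probes of this array. ACACA encodes its cytosolic form, and its probes, within chr19:12873519-13084993 on the minus strand, are printed whole to show which stretches of the transcript were sampled.
ACACA, base 394: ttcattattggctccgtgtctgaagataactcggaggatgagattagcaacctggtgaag
ACACA, base 1994: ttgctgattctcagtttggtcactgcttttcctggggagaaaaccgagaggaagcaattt
ACACA, base 7216: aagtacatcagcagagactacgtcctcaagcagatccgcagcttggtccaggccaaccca
The probe at base 394 ranged from 12.3 to 22.4 in intensity and that at base 7216 from 21.9 to 33.6, neither well above background on any array. The interval of the latter on the genome, 1887 bases, is longer than the probe itself. The probe at base 1994 ranged from 8.09 to 19.6 on 5 arrays and reached 49.2 in wild type replicate 2, the only animal in which it was well above background. Its log2 levels were -5.61, -5.41 and -5.77 in fat-1 and -6.52, -3.63 and -6.36 in wild type blood. All 3 probes were positive and significant against background by the scanner software's weaker flag on all 6 arrays, so the measurement gives a bound and not an absence.

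ACACB, the mitochondrial-membrane form that restrains fatty acid oxidation, has 10 probes on chromosome 17, which share no run of more than 9 bases with those of ACACA. At 9 of them no array was well above background, with intensities from 4.63 to 14.5. The exception, at base 62, close to the start of the transcript, gave 8.08, 45.7 and 57.9 in fat-1 and 16.9, 8.60 and 14.4 in wild type blood. Fat-1 replicates 2 and 3 were well above background there and the other 4 animals were not. With the wild type arrays held at their lowest signal well above background the bound was under 1, so no fold or difference is given.

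Of the transcription factors, SREBF1 was measured and MLXIPL was not. SREBF1 has probes at bases 2432 and 3120 within chr19:35684286-35686062 on the plus strand. At base 3120 its levels were 0.23, -0.16 and -0.46 in fat-1 and -0.16, 0.39 and -0.45 in wild type blood. The groups covered almost the same range, and the difference was -0.06 ± 0.29 (limma adjusted p = 0.929; 95% interval -0.72 to 0.60). At base 2432 it was also -0.06, ± 0.36 (limma adjusted p = 0.946). The single MLXIPL probe, at chr25:35706967-35707026 on the plus strand, was well above background on no array, with an intensity of 9.67 in the dimmest animal and 20 in the brightest.

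The paralogues THRSP and MID1IP1 parted in the same way. The 4 THRSP probes on chromosome 29, of which those at bases 568 and 588 share 40 bases, were well above background on no array, with intensities from 4.32 to 22.5. The 3 MID1IP1 probes on chromosome X were so on all 6. The one at base 1644 gave 2.72, 2.81 and 2.77 in fat-1 and 2.78, 3.02 and 2.35 in wild type blood. The fat-1 animals were closely grouped within the wild type range, and the difference was 0.05 ± 0.23 (limma adjusted p = 0.920; 95% interval -0.48 to 0.58). At bases 520 and 754 it was -0.08 ± 0.24 and 0.15 ± 0.27 (limma adjusted p = 0.881 and 0.787).

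Around these members, 9 lists of 81 further genes were read at the brightest probe of each gene; 73 genes were measured, of which 0 passed an adjusted p of 0.05 in limma in either direction. At an unadjusted p under 0.05 in limma, 3 were higher and 3 lower, where 12.8% of all probes had such a p in either direction. Of the 73 genes 42 lay below 0 and 30 above, where 55.4% of all probes lay below 0. The median difference was -0.08, beside -0.06 over all probes. Citrate and acetyl-CoA supply, with 11 of 11 genes measured, had 9 below 0 and a median of -0.16. Its smallest p-value belonged to MPC2, of the mitochondrial pyruvate carrier, at -0.53 (limma unadjusted p = 0.0474). NADPH supply, with 10 of 10 measured, had a median of -0.03, from PGLS of the pentose phosphate pathway at -0.49 to the mitochondrial malic enzyme ME3 at 0.55. Of the genes for cofactor attachment and malonyl-CoA removal, 3 of 4 were measured, with MLYCD, malonyl-CoA decarboxylase, at -0.26 and HLCS, which biotinylates carboxylases, at -0.20. Their other measured probes were at -0.02 for MLYCD and -0.27 for HLCS. AASDHPPT was at -0.12, but at 0.24, 0.86 and 0.74 at its other probes. Mitochondrial fatty acid synthesis had a median of -0.05 over 7 genes, with the reductase MECR at 0.62 (limma unadjusted p = 0.0247), though -0.17 at its other probe, and the synthase OXSM at 0.63. MCAT of the same list was at -0.32 at its brightest probe and at -0.51 and -0.82 at its others.

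Of the genes for the first steps after palmitate, all 4 were measured and above 0, with a median of 0.48, opposite to FASN. Over all probes 55.4% lay below 0, and the 4 genes were not tested as a set. GPAM, which starts glycerolipid synthesis, stood at -3.63 ± 0.27 in fat-1 and -4.38 ± 0.36 in wild type blood (SD, n = 3 each), a difference of 0.75 ± 0.26 (limma unadjusted p = 0.0194, adjusted p = 0.339). Its other probes were not measured. The wild type mean was near the lowest signal well above background on those arrays, -4.86 to -4.58. ELOVL6, which elongates palmitate, was at 0.57 ± 0.31 (limma adjusted p = 0.434), with its other measured probes at 0.55 and 0.78. The desaturase SCD was at 0.38, with 7 probes from 0.29 to 0.59, and the acyl-CoA synthetase ACSL1 at 0.23.

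**Figure D4:**
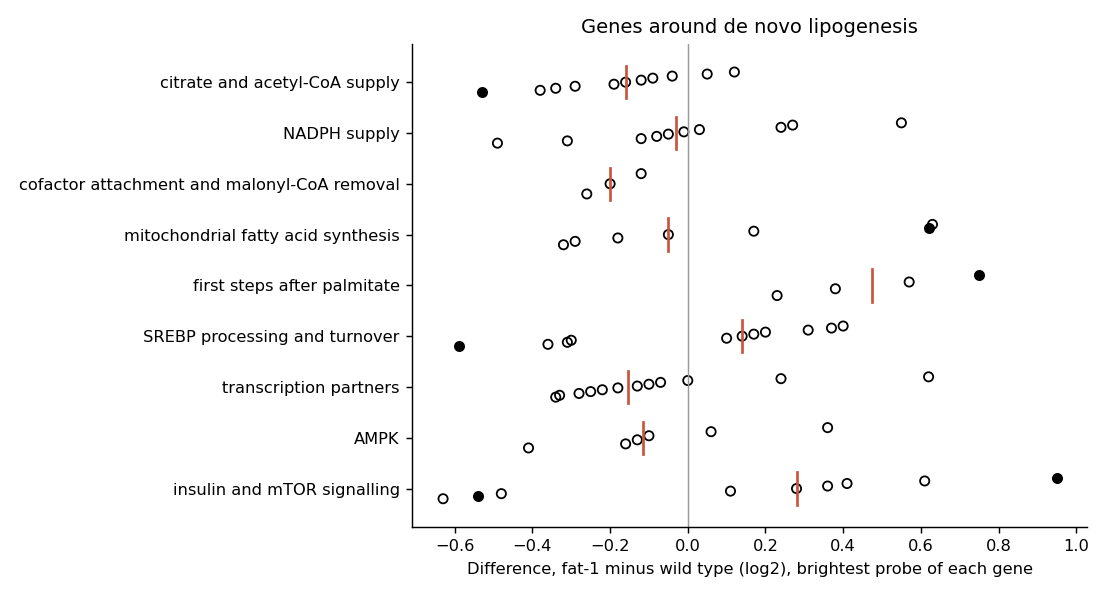
Difference between fat-1 and wild type blood (log2) at the brightest probe of each measured gene in the 9 lists around lipogenesis, filled where the unadjusted limma p was under 0.05, with the median of each list as a red bar. The 4 genes of the first steps after palmitate all lie above 0, and most other lists straddle it.

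Regulators of the pathway were mixed. SREBP processing and turnover had a median of 0.14 over 11 genes. SREBF2, whose product chiefly drives cholesterol synthesis, was at -0.59 ± 0.22 at its brightest probe (limma unadjusted p = 0.0262, adjusted p = 0.356) but at 0.04, 0.16 and 0.08 at its others, and FBXW7, which marks nuclear SREBP for degradation, at 0.40 and, at its other measured probe, 0.04. Transcription partners had a median of -0.16 over 12 of 13 genes, with NFYB at 0.62 and USF1 at -0.34. AMPK, the kinase that inhibits acetyl-CoA carboxylase, had a median of -0.12 over 6 of 9 genes, with PRKAG2 at 0.36 and PRKAA1 at -0.41. The other measured probes of PRKAA1 ran the opposite way, from 0.35 to 0.94. Insulin and mTOR signalling, with 9 of 12 measured, ran from -0.63 to 0.95, with PIK3CA at 0.95 ± 0.37 (limma unadjusted p = 0.0304) and AKT1 at -0.54 ± 0.23 (limma unadjusted p = 0.0447).

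Whole blood mixes cell types, and fewer cells of a type cannot be told apart from less RNA per cell. All 7 T cell markers were well above background on all 6 arrays, and their summed level, as a multiple of the array's 75th percentile, was 89.4 to 122 in fat-1 and 120 to 184 in wild type blood, with overlap. Of the 7, 6 had a lower mean in fat-1 blood. The highest sum was that of wild type replicate 2, which also had the highest FASN. The sums for B cell markers were 39.5 to 49.6 and 42.8 to 85.1, with overlap. Those for red cell markers were 531, 1030 and 581 in fat-1 and 98.5, 1230 and 129 in wild type blood, where replicate 2 stood highest of all and replicates 1 and 3 below every fat-1 animal. Platelet, neutrophil, monocyte and NK cell sums overlapped between the groups. Single markers on the array leaned in both directions. Those with a lower mean in fat-1 blood were 3 of 4 for B cells and 2 of 6 for red cells. They were 0 of 4 for platelets, with a median difference of 0.48, 1 of 4 for neutrophils, 1 of 5 for monocytes and 1 of 4 for NK cells. The neutrophil marker that was lower, CXCR2, was well above background on no array. The neutrophil sum thus rests on S100A8, S100A9 and S100A12. The part of these cell types in the FASN and ME1 values was not tested. Of the adipocyte markers ADIPOQ, LEP, CIDEC and FABP4 were well above background on no array and PLIN1 on 2, and of the hepatocyte markers APOB and TTR on none, ALB and FGB on 1 each and APOA1 on all 6.

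The genes with a probe whose pattern over the 6 arrays lay nearest that of FASN at base 8133, by the root mean square difference of centred log2 values, were ARFGAP1 (0.0210), AP1S1 (0.0359) and PDLIM2 (0.0403). Because they were chosen by this pattern, each had its highest level in wild type replicate 2 and a difference of -0.44 to -0.46. Neither trait is a separate result. ARFGAP1 had 1 measured probe, but AP1S1 had 5 and PDLIM2 had 2, of which only the nearest is given.

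Signal over whole arrays varied, with ranges that overlapped between the groups. The 75th percentile of intensity was 714.4 to 1065.2 in fat-1 and 611 to 885.8 in wild type blood, and 60.4% to 63.4% and 58.4% to 61.3% of probes were well above background. The fat-1 arrays shared 1 slide and scan and the wild type arrays another, so slide and genotype cannot be told apart in any value given here.

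**Figure D5:**
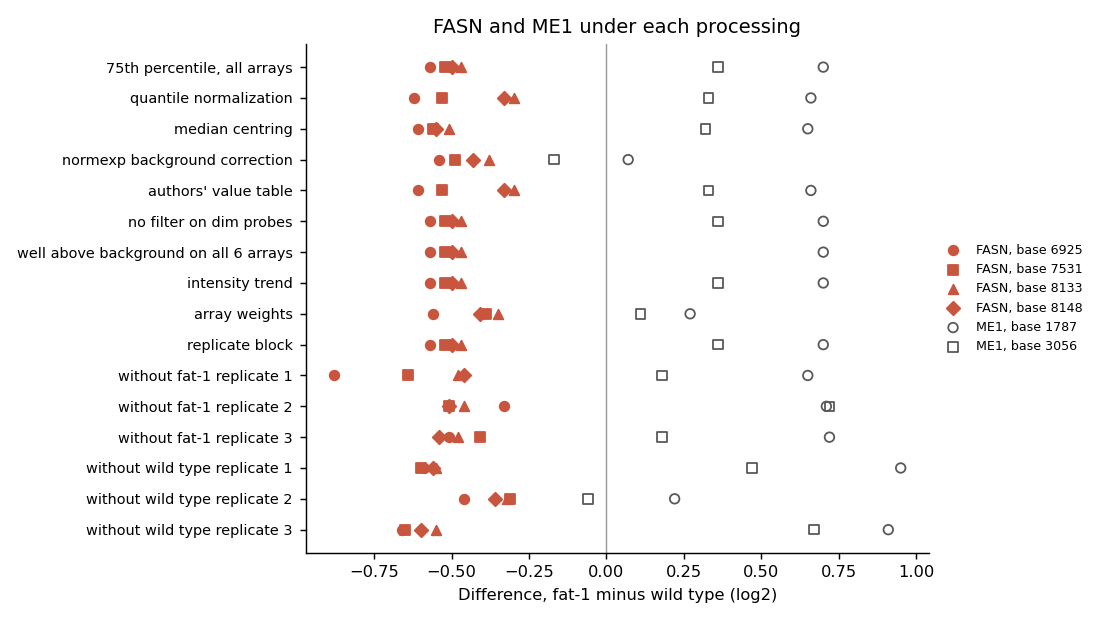
Difference between fat-1 and wild type blood (log2) at the 4 FASN probes (red, filled) and 2 ME1 probes (grey, open) under each way of processing and without each animal in turn. The FASN values stay below 0 throughout, from -0.88 to -0.30, while those of ME1 run from -0.17 to 0.95.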

How the data were processed

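Total RNA was labelled with Cy3 as cRNA, per the labels' protocols. The authors deposited spot intensity, read by Agilent Feature Extraction 10.7.1.1 (named in the submitters' processing notes). Per the file headers, processed intensity has the background removed and gradients corrected, takes a surrogate for the dimmest spots, which narrows their spread, and is unscaled between arrays. The software's flags for background, saturation and outliers were used as deposited. A value table deposited by the authors was taken as log2 intensity made equal in distribution between arrays; the sources used here do not give its tool. Wild type replicate 2 was stored with 3 significant digits and the other arrays with 7.

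Log2 processed intensity was reduced by each array's 75th percentile. Probes flagged as outliers (48) were left out, and a probe was kept if at least 3 of the 6 arrays flagged it well above background, which it can meet through 1 group alone. Differences, fat-1 minus wild type, were fitted in R 4.3.3 by limma 3.58.1 (lmFit, then eBayes), using Benjamini-Hochberg adjustment over all 26810 probes. On simulated data, 50 probes at each size, the fit recovered 5 at a log2 change of 1, 35 at 2, 48 at 3 and 47 at 4. Bounds use, per array, the lowest signal well above background and hold for processed intensity only. Gene symbols of other genes came from the accession for 22205 probes, through RefSeq names of ARS-UCD2.0, from a symbol or older symbol for 9847 and 372 and from the file for 516; 10713 had none. Adding accessions found no further lipogenesis probe. Positions are those of the files, on Btau_3.1, per the file headers. All lipogenesis probes are named, from each other list the 2 genes with the smallest p (1 such gene is not reported here), and for FASN the 3 nearest genes; others were chosen after their values were seen. The members and lists were chosen with earlier results of these data known. The alternatives were other scalings, normexp with an offset of 50, the authors' table, other filters, an intensity trend, array weights, a replicate block and leaving out each animal.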

Additional observations from a re-analysis of the deposited data

How the results depend on the processing

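With 3 arrays a group, only large differences can pass, and dim probes give bounds at most. Of the lipogenesis probes 0 passed an adjusted p of 0.05 under any of the 15 alternatives, as did 0 genes of the other lists; the lowest adjusted p of a lipogenesis probe was 0.117, at FASN base 8148 with array weights. The count over all probes was 46. It was 16 with quantile normalization, 16 in the authors' value table, 14 with no filter, 125 with median centring, 125 with an intensity trend, 118 with normexp, 1055 with array weights and 8 to 55 without 1 animal, with 8, 12 and 13 without fat-1 replicates 1, 2 and 3. The cause was not tested. The replicate numbers were not treated as pairs in the main fit. Deviations of same-numbered animals correlated weakly, at 0.12, 0.19 and 0.01, and those of differently numbered animals at -0.21 to 0.08. Whether the numbers pair animals was not tested. With a replicate block the count was 105, and FASN base 8148 had a limma adjusted p of 0.363. A block for slide was not possible, since each slide holds 1 group. Of 253 differences recomputed for lipogenesis probes, 221 kept their sign and 32 did not, none of them FASN. With quantile normalization, and alike in the authors' table, ACLY bases 4103 and 4124 became 0.04 and 0.09 and ACSS2 base 2483 became 0.06. With normexp, ACLY bases 488 and 1428 became -0.04 and -0.31, ME1 base 3056 became -0.17 and MID1IP1 base 754 became -0.07. With array weights ACSS2 base 2483 became 0.14 and SREBF1 base 3120 became 0.02. The ACLY mean over probes was 0.07. Without 1 animal, ACLY ran from -0.06 to 0.92 at base 488, -0.11 to 0.33 at 1428, -0.21 to 0.00 at 4103 and -0.12 to 0.03 at 4124. ACSS2 ran from -0.52 to 0.51 at base 1052 and -0.20 to 0.23 at 2483, ME1 from -0.06 to 0.72 at 3056, and SREBF1 from -0.46 to 0.16 at 2432 and -0.24 to 0.17 at 3120. MID1IP1 ran from -0.26 to 0.03 at base 520, -0.04 to 0.35 at 754 and -0.13 to 0.20 at 1644. The median over the lipogenesis probes was -0.05, ran from -0.200 to 0.027 without 1 animal and was 0.026 with quantile normalization.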
